A study of Mus musculus with 2 samples.

Results

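The osteogenic transcription factors described here are 8 DNA-binding proteins with known roles in bone formation, namely Runx2, Sp7, Dlx3, Dlx5, Dlx6, Msx1, Msx2, and Atf4. They were chosen by gene symbol from the 32288 features of the count files, and all 8 were found there. Their unique molecular identifiers (UMIs, tags that mark single captured RNA molecules) were followed across the cell types of mouse periosteum, the thin tissue layer that covers bone. The data are 2 single-cell RNA sequencing libraries of periosteal cells from the long bones (femurs and tibias) of 4-week-old C57BL/6 mice, labelled WT, with no treatment. Cells had been sorted on CD45, CD31, Ter-119, and DAPI, a gate that is meant to remove blood, endothelial, red, and dead cells. The labels do not say how many mice gave each library, so that a p-value measures the spread between 2 libraries, which may be technical.

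RUNX2 is the transcription factor without which no osteoblasts form, and SP7 (osterix) acts downstream of it in the same lineage. DLX3, DLX5, and DLX6 are homeodomain proteins that are induced by bone morphogenetic proteins (BMPs) and bind promoters of bone matrix genes, whereas MSX1 and MSX2 are related homeodomain proteins known mainly as transcriptional repressors in skeletal and dental mesenchyme. ATF4 is a leucine zipper protein of the stress and amino acid response, which is active in most cells and which osteoblasts need for their large output of collagen.

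Library 1 held 9932 barcodes and 100808649 UMIs, and library 2 held 3659 barcodes and 33306452 UMIs. With at least 500 genes, at least 500 UMIs, and at most 10% mitochondrial UMIs, 6276 and 2893 cells were kept. Despite the sort, many were blood cells, among them 2693 and 1341 B cell-like and 1255 and 127 erythroid-like cells. Blood clusters were removed before the other cells were clustered again. Of the kept barcodes, 7 occurred in both libraries. EGFP, a jellyfish reporter that a wild-type mouse lacks, had no UMI in library 1 and 6837 UMIs in 170 cells of library 2, which goes against the WT label of library 2. The red reporter tdTomato, which a wild-type mouse lacks as well, had 1482 UMIs in 1027 cells of library 1. It had 4627 UMIs in 846 cells of library 2. Library 1 was thus not free of reporter signal either. EGFP was highest in Col10a1-led cells of library 2, at 5103 CPM (UMIs of a gene scaled so that all genes of a group of cells share one fixed total), against 327 CPM in osteoblast-like and 11.2 CPM in fibroblast-like cells, and its part in the results was not tested. All levels below are therefore given for each library on its own, and the values without library 2 are those of library 1.

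Clusters were named by marker lists that held none of the 8 factors, and the factors were also left out of the genes used to cluster. Fibroblast-like cells (20 in library 1 and 294 in library 2) were led by Pi16 or Mfap4, and their 2 clusters each showed 12 of 14 markers. Lepr stromal-like cells (70 and 7) showed 8 of 8 markers and were led by Adipoq, Hp, and Cxcl12. Osteoblast-like cells (91 and 185) showed 7 of 8 markers in both of their clusters, led by Ifitm5 and by Plk4. Chondrocyte-like cells (27 and 120) showed 9 of 9 markers and were led by Fxyd2, Cnmd, and Il17b. No cluster could be named osteogenic progenitor-like. The closest, with 5 of 8 markers of that list, was led by Mmp9 and the histone genes Hist1h2ap and Hist1h2ae (36 and 61 cells). It stayed unnamed because its leading genes held Mmp9, their only osteoclast marker, and no marker of the progenitor list. It is called the Mmp9-led cluster here. Its leading genes also held Birc5, Hist1h1b, Pclaf, Ube2c, and Cenpa. Mki67, a gene of dividing cells, was at 132 and 117 CPM there, against 12.9 and 1.33 CPM in osteoblast-like and 7.60 and 6.88 CPM in fibroblast-like cells. The part of cell division in the comparisons with this cluster was not tested. Within the Mmp9-led cluster, 1 cell gave 98.9% of the Bglap UMIs in library 1 and 1 cell gave 93.3% of the Col2a1 UMIs in library 2. Leaving out the 1 and 8 Mmp9-led cells with over 1000 CPM of either gene, a choice made after seeing the data, changed no call of a factor in any comparison.

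The factors lie on different chromosomes apart from 2 pairs. In the GENCODE M21 annotation of GRCm38, Runx2 (ENSMUSG00000039153) spans chromosome 17 from 44495987 to 44814797 on the minus strand and overlaps the antisense genes Runx2os1, Runx2os2, and Runx2os3 as well as Supt3. Sp7 (ENSMUSG00000060284; 102356606 to 102367182, minus strand) and Atf4 (ENSMUSG00000042406; 80255184 to 80257541, plus strand) are both on chromosome 15. Dlx5 (ENSMUSG00000029755; 6877805 to 6882085, minus strand) and Dlx6 (ENSMUSG00000029754; 6863334 to 6868568, plus strand) are neighbors on chromosome 6, 9.24 kb apart. Dlx3 (ENSMUSG00000001510) is on chromosome 11 from 95120119 to 95125296 on the plus strand. Msx1 (ENSMUSG00000048450) is on chromosome 5 from 37820485 to 37824583 and Msx2 (ENSMUSG00000021469) on chromosome 13 from 53466884 to 53473074, both on the minus strand.

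RefSeq promoter sequences of GRCm38.p6 were matched for 4 of the 8 factors (Runx2, Msx1, Msx2, and Atf4). The windows of Runx2 and Msx2 lay partly or wholly inside the GENCODE gene, whose start differs from that of RefSeq, and are not shown. The 250 bases before the start of Msx1 and of Atf4 are shown because these genes were called between classes in several comparisons. They lie at chr5:37824586-37824835 (minus strand) and chr15:80254934-80255183 (plus strand). Capitals mark the GC box GGGCGG or its reverse complement CCGCCC, searched on both strands.
Msx1: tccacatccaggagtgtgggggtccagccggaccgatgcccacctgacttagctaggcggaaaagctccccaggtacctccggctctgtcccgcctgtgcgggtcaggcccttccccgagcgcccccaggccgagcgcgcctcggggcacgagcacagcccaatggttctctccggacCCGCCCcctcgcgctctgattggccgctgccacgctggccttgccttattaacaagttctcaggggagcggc
Atf4: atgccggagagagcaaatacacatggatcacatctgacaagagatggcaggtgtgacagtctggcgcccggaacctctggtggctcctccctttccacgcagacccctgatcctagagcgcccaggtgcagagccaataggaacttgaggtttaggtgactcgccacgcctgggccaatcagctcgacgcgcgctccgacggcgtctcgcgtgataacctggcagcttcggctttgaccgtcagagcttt
The Msx1 promoter held 1 GC box, with 68.0% G and C, and the Atf4 promoter held none, with 59.2% G and C. Neither held the RUNX motif TGTGGT, also searched on both strands. Over 32851 promoters of the same length, 14.1% held the RUNX motif and 32.7% the GC box. The homeobox motif TAATTG was in neither promoter and in 7.17% of all promoters.

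Runx2 was abundant in every skeletal cell type tested and near 0 in fibroblast-like cells. Fibroblast-like cells had no Runx2 UMI among 263176 UMIs in library 1 and 14 UMIs, or 5.07 CPM (95% Poisson interval 2.77 to 8.51), in library 2. In osteoblast-like cells it was at 159 CPM (144 to 175) in library 1 and at 115 CPM (104 to 128) in library 2. The Mmp9-led cluster had 222 CPM (177 to 275) and 142 CPM (118 to 170). Both libraries of each of these 2 groups lay above both fibroblast-like sums, and so did the chondrocyte-like sums, at 99.0 CPM (79.6 to 122) and 66.2 CPM (58.1 to 75.2). Lepr stromal-like cells stood at 291 CPM (245 to 343) in library 1 but at 140 CPM (45.5 to 327) in library 2, where only 5 UMIs were counted. In library 1, Runx2 in osteoblast-like cells was 0.546 times (0.450 to 0.666) its level in Lepr stromal-like cells, so the CPM order there placed Lepr stromal-like cells first, with an interval that overlapped that of the Mmp9-led cluster. In library 2, the intervals of these 2 classes overlapped. All intervals cover counting error only.

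Sp7 was likewise near 0 in fibroblast-like cells and was highest in osteoblast-like cells in library 1. Osteoblast-like cells had 486 and 415 Sp7 UMIs, or 196 CPM (179 to 214) and 138 CPM (125 to 151). The Mmp9-led cluster followed with 151 CPM (114 to 196) and 77.8 CPM (59.9 to 99.3), and the chondrocyte-like class had 82.5 CPM (64.9 to 103) and 45.4 CPM (38.8 to 53.0). The osteoblast-like interval lay above the chondrocyte-like one in both libraries but overlapped that of the Mmp9-led cluster in library 1. Lepr stromal-like cells stood at 64.7 CPM (44.2 to 91.3) and 140 CPM (45.5 to 327), the latter from 5 UMIs. Fibroblast-like cells had 0 and 2 Sp7 UMIs, which put osteoblast-like cells at least 17.2-fold higher in library 1, against a floor of 3 counts, and 190 times (52.3 to 1574) higher in library 2. For Runx2 the same comparison gave at least 13.95-fold in library 1 and 22.7-fold (13.4 to 42.1) in library 2.

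**Figure D1:**
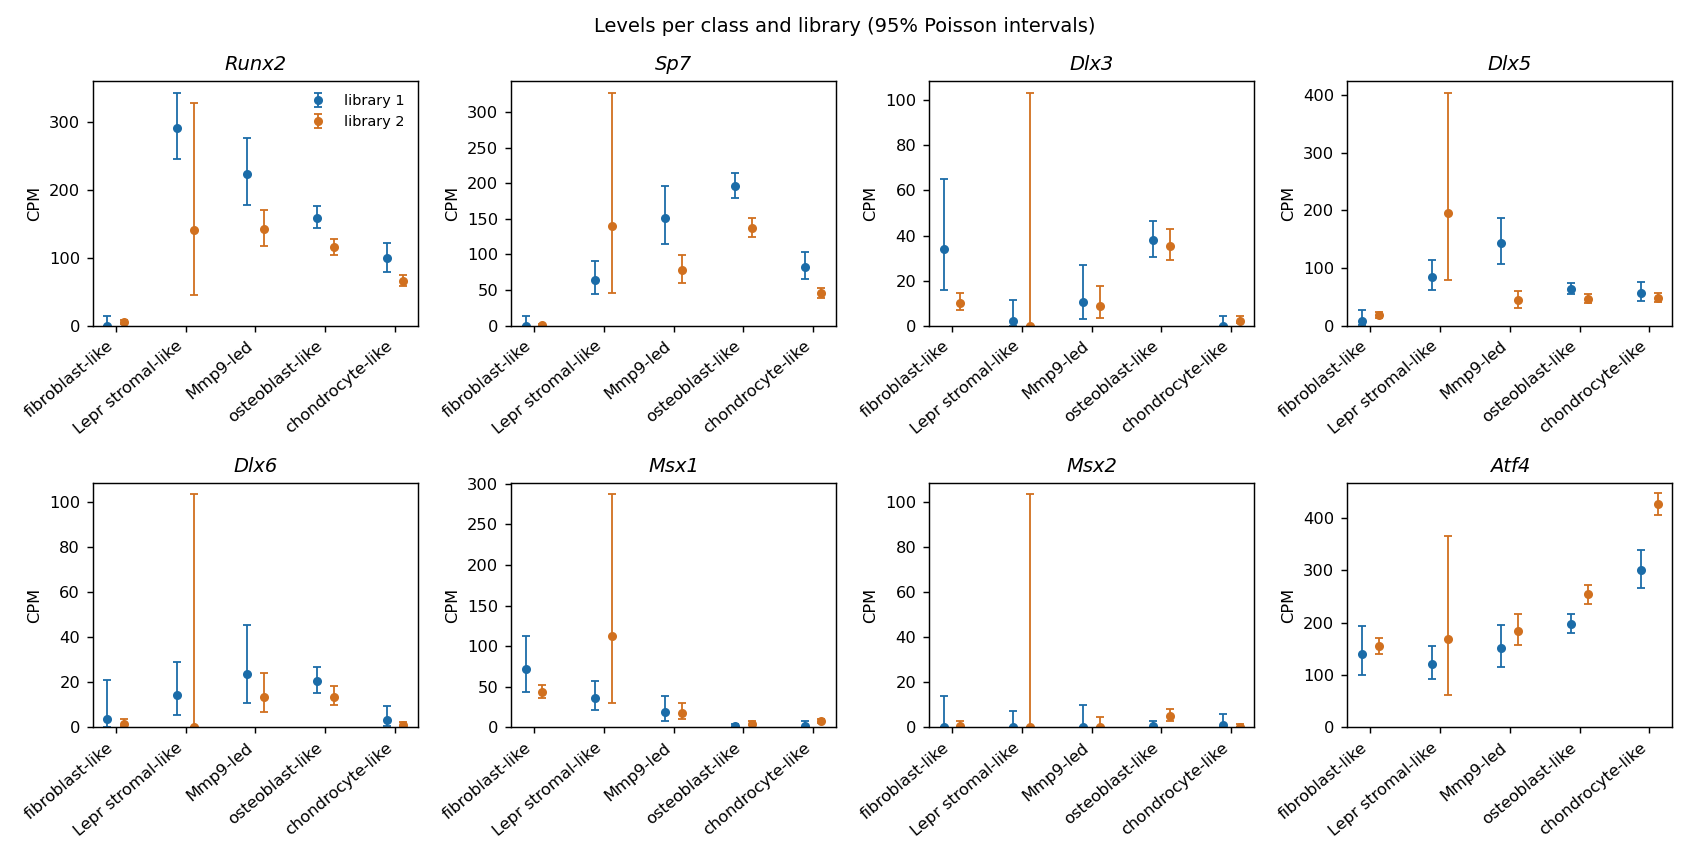
Each panel plots the level of 1 factor in depth-scaled UMIs (CPM, y axis, linear from 0) in 5 cell groups (x axis), with 1 point per library and its 95% Poisson interval. Runx2 and Sp7 are near 0 in fibroblast-like cells, Msx1 is lowest in osteoblast-like cells of library 1 (1.21 CPM), and the wide intervals of library 2 in Lepr stromal-like cells come from 7 cells.

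Among the 5 groups, Dlx3 was higher in osteoblast-like than in the other skeletal cells, with 94 UMIs, or 37.8 CPM (30.6 to 46.3), in library 1 and 107 UMIs, or 35.5 CPM (29.1 to 42.9), in library 2. Chondrocyte-like cells had 0 and 8 Dlx3 UMIs, and Lepr stromal-like cells had 1 and 0. The latter 0 came from 7 cells with 35671 UMIs and allows up to 103 CPM, so library 2 shows no difference from Lepr stromal-like cells. The Mmp9-led cluster lay between these 2 classes and osteoblast-like cells, at 10.6 CPM (2.89 to 27.1) and 8.51 CPM (3.42 to 17.5). Across libraries, its difference from osteoblast-like cells was not called (adjusted p = 0.0875 in edgeR). Fibroblast-like cells were split between libraries, with 34.2 CPM (15.6 to 64.9) from 9 UMIs in library 1 and 10.1 CPM (6.74 to 14.7) from 28 UMIs in library 2. All 9 UMIs of library 1 came from Pi16-led cells, where they lay in 2 cells, and 26 of the 28 UMIs of library 2 came from the same cluster.

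Dlx5 was present in all 5 groups. Its level was 63.6 CPM (54.1 to 74.3) and 46.1 CPM (38.7 to 54.4) in the osteoblast-like class. The chondrocyte-like class was alike, with 57.2 CPM (42.7 to 75.0) and 48.5 CPM (41.6 to 56.2). The Mmp9-led cluster had 143 CPM (107 to 187) in library 1 but 43.7 CPM (30.6 to 60.6) in library 2, so that it stood above osteoblast-like cells in library 1 alone. Lepr stromal-like cells stood at 84.9 CPM (61.2 to 115) and 196 CPM (78.9 to 404), and fibroblast-like cells stood at 7.60 CPM (0.920 to 27.5) and 17.7 CPM (13.1 to 23.5). Within the fibroblast-like cells of library 2, the Mfap4-led cluster had 35.7 CPM (24.8 to 49.6) of Dlx5 and the Pi16-led cluster had 7.86 CPM (4.30 to 13.2). Library 1 held 3 Mfap4-led cells, without a Dlx5 UMI, and gave no second value for that contrast.

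Dlx6, the neighbor of Dlx5, was less abundant and had few UMIs in chondrocyte-like and fibroblast-like cells. The osteoblast-like class held 20.5 CPM (15.3 to 27.0) and 13.6 CPM (9.75 to 18.4), and the Mmp9-led cluster had 23.8 CPM (10.9 to 45.2) and 13.4 CPM (6.67 to 23.9). Lepr stromal-like cells had 7 UMIs, or 14.2 CPM (5.69 to 29.1), in library 1, with an interval that overlapped the osteoblast-like one, and no UMI in library 2. The chondrocyte-like class had 3 Dlx6 UMIs in each library, and fibroblast-like cells had 1 and 4. Dlx5 and Dlx6 thus differed in chondrocyte-like cells, which held 52 and 175 Dlx5 UMIs. Dlx6 overlaps the antisense gene Dlx6os1, which had 3 UMIs in osteoblast-like cells of each library, against 51 and 41 of Dlx6. In the Mmp9-led cluster, Dlx6os1 had 6 and 4 UMIs against 9 and 11 of Dlx6, so that its part there was larger. The study's methods name Cell Ranger with default parameters for the counting and do not mention strand. Whether reads of Dlx6os1 entered the Dlx6 counts was not tested.

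Msx1 was higher in fibroblast-like than in osteoblast-like and chondrocyte-like cells. Fibroblast-like cells held 72.2 CPM (43.5 to 113) and 43.1 CPM (35.7 to 51.6), whereas osteoblast-like cells had 3 UMIs, or 1.21 CPM (0.249 to 3.53), and 13 UMIs, or 4.31 CPM (2.29 to 7.37). The 2 groups did not overlap, and the osteoblast-like level was 0.0167 times (0.00317 to 0.0568) the fibroblast-like level in library 1 and 0.100 times (0.0517 to 0.178) in library 2. Lepr stromal-like cells stood at 36.4 CPM (21.6 to 57.5) and 112 CPM (30.6 to 287), the Mmp9-led cluster 18.5 CPM (7.45 to 38.2) and 18.2 CPM (10.2 to 30.1), and the chondrocyte-like class 2.20 CPM (0.266 to 7.95) and 7.48 CPM (4.93 to 10.9). Tenocyte-like cells of library 2, which showed 8 of 8 tendon markers, had 67.7 CPM (51.3 to 87.7) from 100 cells. Msx2 had few UMIs in the 5 groups. It had 2 and 15 UMIs in osteoblast-like cells (0.805 and 4.97 CPM), 1 and 1 in chondrocyte-like cells, 0 and 2 in fibroblast-like cells, and none in Lepr stromal-like or Mmp9-led cells, and it failed the filter on low counts. In library 2, osteoblast-like cells were above fibroblast-like cells (ratio 6.87, 1.60 to 61.9) and chondrocyte-like cells (ratio 17.9, 2.76 to 756) beyond counting error, but the counts of library 1 were too few to show a difference. The main fit did not test Msx2 across libraries. Alternatives without that filter held Msx2, and its values there are not given.

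Atf4 was found in each of the 5 groups, at levels that varied less than those of the other factors. Chondrocyte-like cells had the highest of the 5 groups, with 300.3 CPM (266 to 338) in the first and 426 CPM (405 to 448) in the other library. The osteoblast-like class had 198 CPM (181 to 216) and 254 CPM (236 to 273), and the fibroblast-like class 141 CPM (99.0 to 194) and 155 CPM (140 to 170). The Mmp9-led cluster had 151 CPM (114 to 196) and 185 CPM (157 to 217), and Lepr stromal-like cells 121 CPM (92.5 to 156) and 168 CPM (61.7 to 366). Atf4 was also present in the B cell-like cells that passed the sort, at 294 and 316 CPM, which lay within the range of the 5 groups.

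Whether these differences exceeded the spread between libraries was tested on UMIs summed per library and class, by the quasi-likelihood test of edgeR, with p-values adjusted by Benjamini and Hochberg's method over all 10779 genes of the fit. The main fit held the class only, and an alternative added the library as a replicate block. The filter on low counts kept 7 of the 8 factors, and a call is an adjusted p under 0.05. Fitted fold changes are relative to TMM factors, which were 0.829 and 0.818 for osteoblast-like and 1.39 and 1.07 for fibroblast-like sums. Without these factors, the median of all genes was -0.52 (log2) in osteoblast-like minus fibroblast-like cells.

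Between osteoblast-like and fibroblast-like cells, 5 of the 7 factors were called, against 19.7% of all genes tested. Sp7 had a fitted difference of 8.25 on the log2 scale in edgeR (standard error 0.69, adjusted p = 0.000127) and Runx2 one of 5.47 (standard error 0.66, adjusted p = 0.000426). Both values rest on nearly no counts in fibroblast-like cells and are not measured ratios. Dlx6 was higher by 3.62 (standard error 0.67, adjusted p = 0.00313) and Dlx5 by 2.36 (standard error 0.56, adjusted p = 0.0147), whereas Msx1 was lower, at -3.71 (standard error 0.63, adjusted p = 0.00294). Dlx3 differed by 1.56 (standard error 0.63, adjusted p = 0.117) and Atf4 by 1.14 (standard error 0.37, adjusted p = 0.059), and neither was called. With the library as a replicate block, Atf4 was called as well (1.16, adjusted p = 0.00549), and so it was at clustering resolution 1.2 (1.43, adjusted p = 0.0289). Over its 10 alternatives with a test, the adjusted p of Atf4 ran from 0.00549 to 0.199. At resolution 1.2 an Ifitm5-led cluster of 43 and 73 cells was unnamed and left the osteoblast-like class, so that the class tested there differed. Of the 2124 genes called, 39.4% were higher in osteoblast-like cells, and without TMM factors this share was 21.5%.

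Between the Mmp9-led cluster and fibroblast-like cells, 4 of 7 factors were called, against 11.1% of all genes. Sp7 (7.23, standard error 0.69, adjusted p = 0.000466), Runx2 (5.41, 0.66, 0.00117), Dlx6 (3.25, 0.71, 0.0138), and Dlx5 (2.62, 0.57, 0.0176) were all higher in the Mmp9-led cluster. The Dlx6 call was lost in DESeq2 (adjusted p = 0.0826, the highest of 9 alternatives, of which the lowest was 0.00597). Msx1 was not called here (-1.46, adjusted p = 0.162), nor was Dlx3 (-0.83, adjusted p = 0.556).

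Chondrocyte-like cells also differed from fibroblast-like cells in most factors, with 6 of 7 called against 25% of all genes. They were higher in Sp7 (6.74, standard error 0.69, adjusted p = 0.000214), Runx2 (4.62, 0.65, 0.000846), Dlx5 (2.20, 0.56, 0.0181), and Atf4 (1.72, 0.38, 0.00894). They were lower in Dlx3 (-3.00, 0.77, 0.0178) and Msx1 (-2.85, 0.60, 0.00796). Dlx6 was the exception, with a difference of 0.12 (standard error 0.83, adjusted p = 0.932). These 3 comparisons share their fibroblast-like sums. Of the 2694 genes called here, 42.4% were higher in chondrocyte-like cells, and 25.6% without TMM factors.

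The direct comparison of osteoblast-like with chondrocyte-like cells called 3 of 7 factors, against 13.7% of all genes. All 3 were higher in osteoblast-like cells, and they were Dlx3 (4.57, standard error 0.73, adjusted p = 0.00251), Dlx6 (3.50, 0.63, 0.00315), and Sp7 (1.51, 0.43, 0.0421). The Sp7 call was lost at clustering resolution 0.4 (adjusted p = 0.0799) and without TMM factors (adjusted p = 0.065), in a range of 0.00664 to 0.0799 over 10 alternatives. Runx2 was 1.61 times (1.27 to 2.04) and 1.74 times (1.47 to 2.06) higher in osteoblast-like cells, beyond counting error in each library, but was not called across libraries (0.85, standard error 0.50, adjusted p = 0.341). Dlx5 differed by 0.16 (standard error 0.50, adjusted p = 0.893), and its ratios of 1.11 (0.808 to 1.55) and 0.95 (0.755 to 1.19) had intervals that held 1. Atf4 stood at 0.658 times (0.566 to 0.766) and 0.596 times (0.546 to 0.651) the chondrocyte-like level but was not called (-0.59, adjusted p = 0.372).

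Osteoblast-like cells and the Mmp9-led cluster differed least of the pairs in the planned fit, with 3.63% of all genes called and none of the 7 factors, in edgeR and in DESeq2 alike. At an unadjusted p under 0.05 there were 4 of the 7 factors, against 1876 of the 10779 genes tested. These factors were Dlx3 (2.39, standard error 0.68, adjusted p = 0.0875), Msx1 (-2.24, 0.65, 0.0959), Sp7 (1.02, 0.43, 0.245), and Atf4 (0.86, 0.37, 0.269). With no filter on low counts, Dlx3 was called (adjusted p = 0.0252), and without TMM factors, Msx1 was (adjusted p = 0.046). Over 9 alternatives, the adjusted p ran from 0.0252 to 0.158 for Dlx3 and from 0.046 to 0.204 for Msx1. Runx2 was nearly level in the fit (0.05, standard error 0.50), where its CPM ratio was 0.715 (0.564 to 0.916) and 0.811 (0.656 to 1.01). Of the 391 genes called, 17.6% were higher in osteoblast-like cells, and 4.28% without TMM factors. With the library as a replicate block, 716 genes were called.

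The Mmp9-led cluster differed from chondrocyte-like cells in 2 of 7 factors, against 15.1% of all genes. Dlx6 was higher (3.13, standard error 0.67, adjusted p = 0.00938) and Atf4 lower (-1.44, 0.37, 0.0292) in the Mmp9-led cluster. In DESeq2, the Dlx6 call was lost (adjusted p = 0.0602, the highest of 9 alternatives, of which the lowest was 0.00332). The share of called genes that were higher in the Mmp9-led cluster was 61.6%, and 73.8% without TMM factors.

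**Figure D2:**
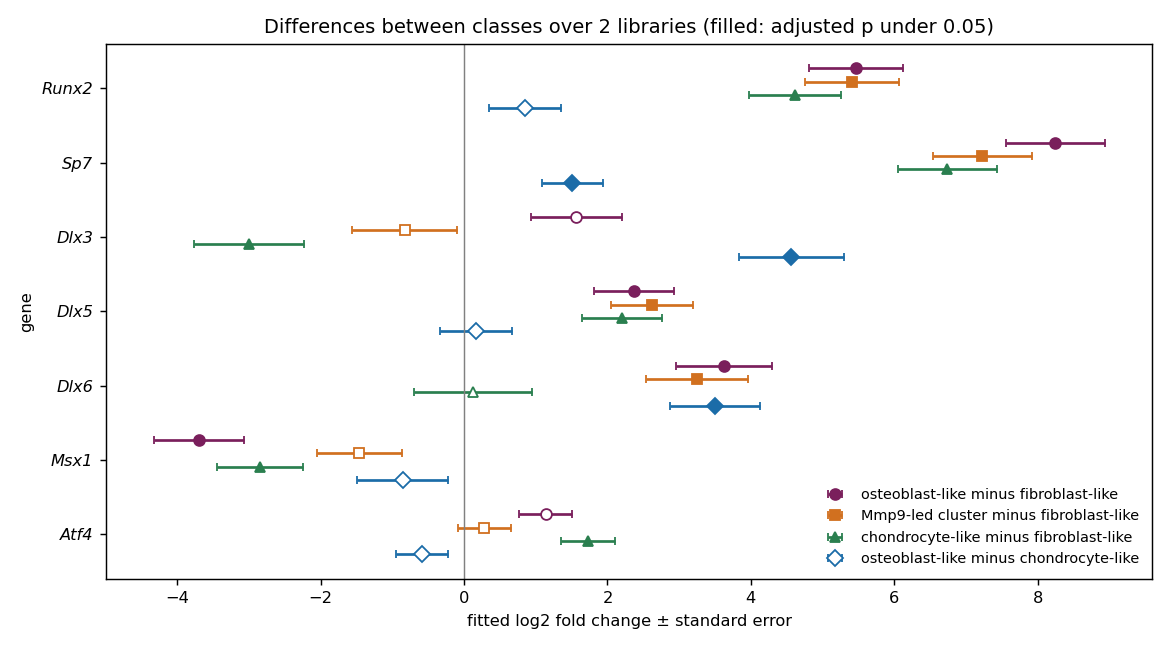
The plot gives the fitted log2 fold change (x axis) of the 7 tested factors (y axis) in 4 comparisons of classes, with bars of 1 standard error and filled symbols for an adjusted p under 0.05. Runx2, Sp7, and Dlx5 are filled on the right in all 3 comparisons with fibroblast-like cells, Msx1 lies on the left, and Dlx3 and Dlx6 separate osteoblast-like from chondrocyte-like cells.

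Lepr stromal-like cells, known from marrow as adipogenic and osteogenic stroma, fell short of the planned 10 cells in library 2 and were compared in a separate fit with a minimum of 5 cells, added after the data were seen (9706 genes). Library 2 gave 35671 UMIs from 7 of these cells, so that values below depend mainly on library 1. Against fibroblast-like cells, 3 of 7 factors were called and higher, against 6.04% of all genes. These were Sp7 (6.42, standard error 0.75, adjusted p = 0.00143), Runx2 (5.38, 0.76, 0.00384), and Dlx5 (2.64, 0.64, 0.0367), of which Dlx5 was not called with the library as a replicate block (adjusted p = 0.0519, with a range of 0.00359 to 0.0519 over 10 alternatives). The share of called genes that were higher was 48.6%, and 67.1% without TMM factors.

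Osteoblast-like minus Lepr stromal-like cells gave 4 called factors of 7, against 13.4% of all genes. Dlx3 (5.04, standard error 1.17, adjusted p = 0.0182), Sp7 (1.82, 0.52, 0.0413), and Atf4 (1.62, 0.40, 0.023) were higher and Msx1 (-3.38, 0.77, 0.0164) was lower in osteoblast-like cells. The Dlx3 value rests on 1 UMI in Lepr stromal-like cells, and the ratio in library 1 was 18.7 (3.28 to 747). The calls of Sp7 and Atf4 were lost without TMM factors (adjusted p = 0.253 and 0.182) and at clustering resolution 0.4 (0.0619 and 0.25), and that of Sp7 also at resolution 1.2 (0.0514) and without integration (0.0836). The classes changed with resolution, and at 0.4 the Lepr stromal-like class held 83 and 40 cells, with Mmp9 among its leading genes. Without TMM factors the median of all genes was -0.85 (log2) and 12.7% in place of 47.4% of called genes were higher. Sp7 was called in 6 of 10 alternatives (adjusted p 0.0168 to 0.253) and Atf4 in 8 of 10 (0.00516 to 0.25). Runx2 had a fitted difference of 0.13 (standard error 0.59, adjusted p = 0.923), which was -0.76 without TMM factors.

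Lepr stromal-like cells were higher than chondrocyte-like cells in Msx1 (2.55, standard error 0.75, adjusted p = 0.0361) and lower in Atf4 (-2.20, 0.40, 0.00438). These were 2 of 7 factors, against 21% of all genes, of which 53.9% were higher in Lepr stromal-like cells (82.7% without TMM factors). Without integration of the libraries, the Msx1 call was lost (adjusted p = 0.0546, with a range of 0.0112 to 0.0546 over 10 alternatives). At clustering resolution 0.4, Runx2 and Dlx6 were called too (adjusted p = 0.026 and 0.0231), where the ranges over alternatives were 0.026 to 0.493 and 0.0231 to 0.426. Dlx6 was also called without TMM factors, and thus in 2 of 10 alternatives. Against the Mmp9-led cluster, 1.8% of genes were called and none of the 7 factors, in edgeR or among the 5 factors that DESeq2 gave an adjusted p. No factor had an unadjusted p under 0.05 in edgeR, against 1785 of the 9706 genes tested. With the library as a replicate block, 428 genes were called there, against 175 without it. Of those 175, 67.4% were higher in the Mmp9-led cluster, and without TMM factors the share was 35.0%.

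The share of cells with at least 1 UMI of a factor depends on depth. Median UMIs per cell were 28972 and 14605 in osteoblast-like, 34081 and 30324 in chondrocyte-like, 12388 and 9192 in fibroblast-like, 8742 and 7884 in Mmp9-led, and 6766 and 3159 in Lepr stromal-like cells. Runx2 was found in 92.3% (exact binomial interval 84.8 to 96.8) and 71.4% (64.3 to 77.8) of osteoblast-like cells, in 96.3% (81.0 to 99.9) and 72.5% (63.6 to 80.3) of chondrocyte-like cells, and in 65.7% (53.4 to 76.7) of the 70 Lepr stromal-like cells of library 1. It was found in 0 of 20 fibroblast-like cells of library 1, which allows a share of up to 15% (3 counts of the total), and in 4.42% (2.38 to 7.44) of those of library 2. B cell-like cells were taken as the background for the factors other than Atf4, with medians of 3857 and 4004 UMIs. Their shares were 0.817% and 0.298% for Runx2 and 0.186% and 0.149% for Sp7. They were 0 of 2693 and 0 of 1341 for Dlx3, Dlx6, and Msx2, which allows up to 0.111% and 0.224% by the same limit.

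At an equal 2000 UMIs per cell, the order changed. The share expected over all draws was 39.7% for Runx2 in Lepr stromal-like cells of library 1, 38.1% in Mmp9-led, 27.4% in osteoblast-like, and 18.6% in chondrocyte-like cells. In library 2, the values in the same order were 38.9%, 30.7%, 22.7%, and 12.7%. For Sp7, osteoblast-like cells came first in library 1 with 30.8%, ahead of 25.6% in Mmp9-led, 14.2% in chondrocyte-like, and 11.7% in Lepr stromal-like cells. Library 2 gave 24.1%, 15.1%, 8.54%, and 45.3%, the last from 6 cells. Sp7 in fibroblast-like cells of library 2 was at 0.680% of cells (0.0825 to 2.44) and 0.152% at 2000 UMIs. Its interval held the B cell-like share, so it was not told apart from that background. Thinning left out cells with fewer UMIs, which were 1 and 16 osteoblast-like, 5 and 4 Mmp9-led, 7 and 1 Lepr stromal-like, and 0 and 9 fibroblast-like cells in the 2 libraries.

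**Figure D3:**
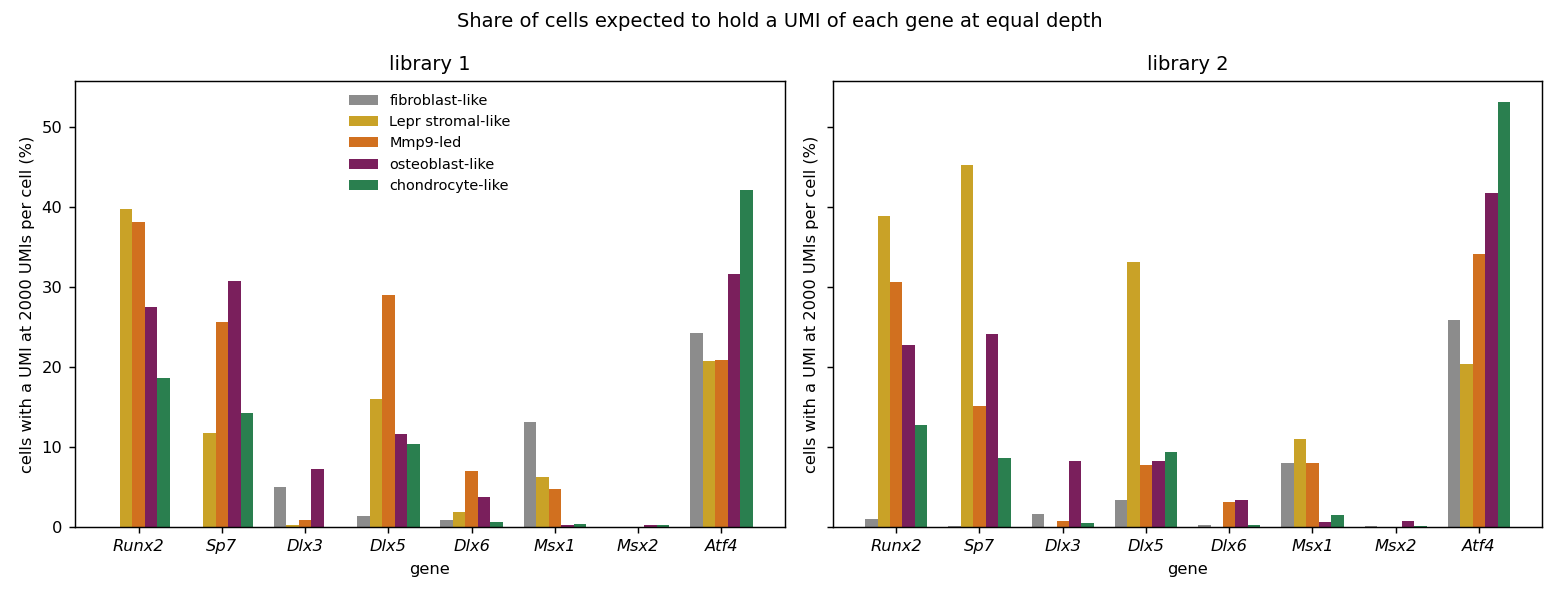
Bars give the percentage of cells (y axis, from 0) expected to hold at least 1 UMI of each factor (x axis) when every cell is thinned to 2000 UMIs, for 5 cell groups in library 1 (left) and library 2 (right). Runx2 is highest in Lepr stromal-like cells of library 1 (39.7%), Dlx3 in osteoblast-like cells (7.17% and 8.18%), and Atf4 in chondrocyte-like cells (42.1% and 53.1%), while the Lepr stromal-like bars of library 2 stand for 6 cells.

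Runx2 and Sp7 were found together in most osteoblast-like cells. Both had a UMI in 81 of 91 cells of library 1 and in 104 of 185 cells of library 2. Of the remaining osteoblast-like cells, 3 and 28 held Runx2 alone, 2 and 23 held Sp7 alone, and 5 and 30 held neither. In Lepr stromal-like cells of library 1, 18 of 70 held both and 28 held Runx2 alone, against 3 with Sp7 alone. The Mmp9-led cluster had both in 18 of 36 and 20 of 61 cells. Chondrocyte-like cells had both in 23 of 27 and 57 of 120 cells, so joint detection was not particular to osteoblast-like cells. These joint counts depend on depth, which differed between the classes. They were not brought to equal depth or set against the counts expected from each gene alone. Per cell, the median number of the 8 factors detected was 5 and 3 in osteoblast-like, 4 and 3 in chondrocyte-like, and 2 and 1 in fibroblast-like cells. It was 3 and 3 in Mmp9-led and 2.5 and 2 in Lepr stromal-like cells. At 2000 UMIs, the expected number was 1.13 and 1.10 in osteoblast-like, 0.864 and 0.860 in chondrocyte-like, and 0.445 and 0.402 in fibroblast-like cells. Mmp9-led cells had 1.26 and 0.994 and Lepr stromal-like cells 0.963 and 1.49, the last from 6 cells. Osteoblast-like cells were thus not first in either library at equal depth.

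The 2 osteoblast-like clusters had overlapping intervals in Runx2, Sp7, and Dlx3, given here without a test. Runx2 was at 156 CPM (137 to 177) and 113 CPM (98.0 to 129) in the Ifitm5-led and at 164 CPM (139 to 192) and 120 CPM (101 to 143) in the Plk4-led cluster. Sp7 was at 201 and 145 CPM against 187 and 124 CPM, and Dlx3 at 40.1 and 39.1 CPM against 34.1 and 29.2 CPM. Atf4 was higher in the Plk4-led cluster, with 225 CPM (195 to 257) and 345 CPM (312 to 382) against 181 CPM (161 to 204) and 202 CPM (182 to 223), and in library 2 the intervals did not overlap.

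Around the chondrocyte-like class, 2 clusters with hypertrophic genes differed in the factors, again described without a test since they were chosen after their values were seen. The Tcim-led cluster (17 and 49 cells), which showed 3 of 6 hypertrophic chondrocyte markers, had Atf4 at 567 CPM (494 to 647) and 596 CPM (553 to 642), Runx2 at 257 CPM (209 to 313) and 120 CPM (101 to 141), and Dlx5 at 98.8 CPM (69.9 to 136) and 122 CPM (103 to 144). For each of these genes, both libraries lay above the chondrocyte-like level of the same library without overlap of intervals for Runx2 and Atf4. Its Dlx3, at 28.6 and 26.1 CPM, was also above the chondrocyte-like level of 0 and 2.22 CPM and had intervals (14.3 to 51.2 and 17.8 to 37.1) that overlapped the osteoblast-like ones. Msx2 had 7 UMIs, or 18.2 CPM (7.32 to 37.5), in 5 of its 17 cells of library 1 and 4 UMIs, or 3.37 CPM (0.919 to 8.63), in library 2. The Col10a1-led cluster (68 and 74 cells), unnamed, had the lowest Atf4 of these clusters, at 59.0 CPM (39.8 to 84.2) and 120.0 CPM (93.2 to 152). It had 11 and 22 Runx2 UMIs (21.6 and 38.8 CPM), 0 and 4 Sp7 UMIs, 1 and 5 Dlx5 UMIs, and no Msx1 UMI. Its EGFP in library 2 was the highest of the clusters, and library 1 held no EGFP. The unnamed S100a5-led cluster (30 and 47 cells), led by S100a5, Stoml3, and Gng13, had Dlx3 at 78.0 CPM (43.7 to 129) and 42.6 CPM (20.4 to 78.4), together with Runx2 at 114 CPM (71.7 to 173) and 192 CPM (140 to 257) and Sp7 at 52.0 and 81.0 CPM.

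**Figure D4:**
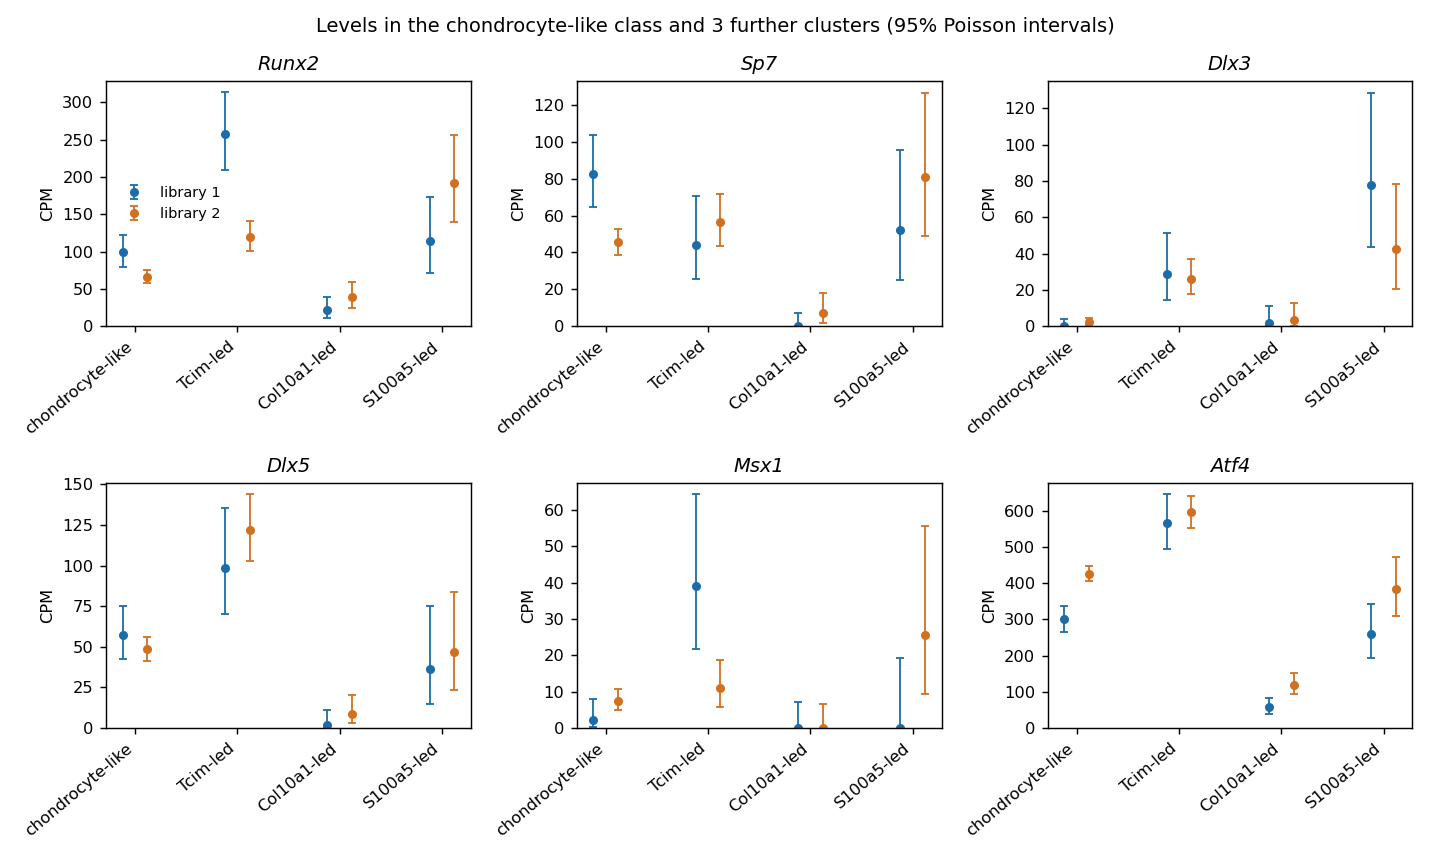
Each panel plots the level of 1 factor in CPM (y axis, linear from 0) in the chondrocyte-like class and in 3 further clusters (x axis), with 1 point per library and 95% Poisson intervals. The Col10a1-led cluster is lowest in Runx2 (21.6 and 38.8 CPM) and Atf4 (59.0 and 120.0 CPM), and the S100a5-led cluster is highest in Dlx3 (78.0 and 42.6 CPM).

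Co-regulators of RUNX2 were read from a list of 14 genes, of which 13 were tested. In osteoblast-like minus fibroblast-like cells, 2 were higher and 2 lower, with a median log2 fold change of 0.29 against -0.01 over all genes, of which 19.7% were called. Runx3, a relative of RUNX2 in cartilage, was higher in osteoblast-like cells (5.47, standard error 0.82, adjusted p = 0.00141), with 27.8 and 20.6 CPM, and reached 95.7 and 77.6 CPM in chondrocyte-like cells. Twist2, an inhibitor of RUNX2, was lower in osteoblast-like cells (-6.30, standard error 1.12, adjusted p = 0.00151), with 0 and 1 UMIs against 6 and 81 in fibroblast-like cells. Smurf1, a ubiquitin ligase that marks RUNX2 and SMAD proteins for degradation, was lower as well (-1.66, standard error 0.44, adjusted p = 0.0241). Genes of the lists beyond the 4 largest called differences of each, such as Cbfb, Ctnnb1, Tcf7l1, Atf5, Snai2, Fosl2, and Asns, were chosen after their values were seen. Cbfb, the DNA-binding partner of RUNX2, was not called (0.78, adjusted p = 0.228).

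All 13 genes of the list of WNT and BMP effectors were tested, and in the same comparison 5 were higher and 1 lower in osteoblast-like cells (median 1.51), against 19.7% of all genes called. The WNT effector Tcf7 had 60.4 and 58.3 CPM in osteoblast-like and 0 and 1.09 CPM in fibroblast-like cells (6.25, standard error 0.60, adjusted p = 0.000164). Smad9, a BMP effector of low level here, was higher (2.78, standard error 0.69, adjusted p = 0.012), and so were Smad7 (2.28, 0.49, 0.00895) and Smad6 (1.97, 0.48, 0.0161), which are inhibitors of SMAD signaling. The remaining 2 called genes were Ctnnb1, the gene of beta-catenin, which was higher, and Tcf7l1, which was lower. Of the list of 13 bone AP-1, NFAT, MEF2, and hedgehog factors, all were tested, and 2 were higher and 1 lower (median 0.42), a share near the 19.7% of all genes. Mef2c had 602 and 552 CPM in osteoblast-like and 11.4 and 31.1 CPM in fibroblast-like cells (5.04, standard error 0.56, adjusted p = 0.000372), and it was at 553 and 303 CPM in chondrocyte-like cells. Vdr, the vitamin D receptor, was higher too (5.32, 0.71, 0.000537), and Nfatc2 was lower (-1.96, 0.53, 0.0304). Of the other DLX and MSX genes, 1 of 4 passed the filter on low counts, and this gene, Dlx4, did not pass the test (0.45, standard error 0.89, adjusted p = 0.78).

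Targets and partners of ATF4 were read from a further list. Of 17 genes, 16 were tested, 7 were higher, and 1 was lower in osteoblast-like minus fibroblast-like cells (median 1.18), where 19.7% of all genes were called. Psat1 and Phgdh encode enzymes of serine synthesis. Psat1 had 51.5 and 37.5 CPM in osteoblast-like and 0 and 3.98 CPM in fibroblast-like cells (4.15, standard error 0.67, adjusted p = 0.00187), and Phgdh had 85.3 and 92.5 CPM against 15.2 and 34.4 CPM (2.17, adjusted p = 0.0111). Creb3l1, a stress sensor of the endoplasmic reticulum that promotes collagen synthesis in osteoblasts, was at 418 and 231 CPM against 53.2 and 50.3 CPM (3.17, standard error 0.41, adjusted p = 0.000779). Chac1, an enzyme that degrades glutathione, was higher (5.39, standard error 1.22, adjusted p = 0.0113) on low counts of 8.05 and 17.6 CPM. The lower gene was Atf5, a relative of ATF4 (-1.49, standard error 0.30, adjusted p = 0.0064).

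In chondrocyte-like minus fibroblast-like cells, where Atf4 was called, 6 of these 16 genes were higher and 1 lower (median 1.38), against 25% of all genes called. Creb3l1 (-0.30, standard error 0.40, adjusted p = 0.622) and Phgdh (0.37, 0.48, 0.621) were not among them. In osteoblast-like minus chondrocyte-like cells, 3 of the 16 were higher and none lower (median -0.16), a share near the 13.7% of all genes, and they were Creb3l1 (3.48, 0.42, adjusted p = 0.000645), Psat1 (2.82, 0.59, 0.00895), and Phgdh (1.80, 0.47, 0.0308), all by edgeR's quasi-likelihood test. In osteoblast-like minus Lepr stromal-like cells, 3 of 15 were higher, against 13.4% of all genes called, and they were Asns, Creb3l1, and Psat1. In osteoblast-like minus Mmp9-led cells, 3.63% of all genes were called, and no gene of the ATF4 list was. Of the other lists, 2 genes were called, each the only call among 13 tested genes of its list. They were Snai2 (-2.45, standard error 0.39, adjusted p = 0.00994), a zinc finger repressor of mesenchymal cells, and Fosl2 (1.80, 0.36, 0.0286), an AP-1 subunit.

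**Figure D5:**
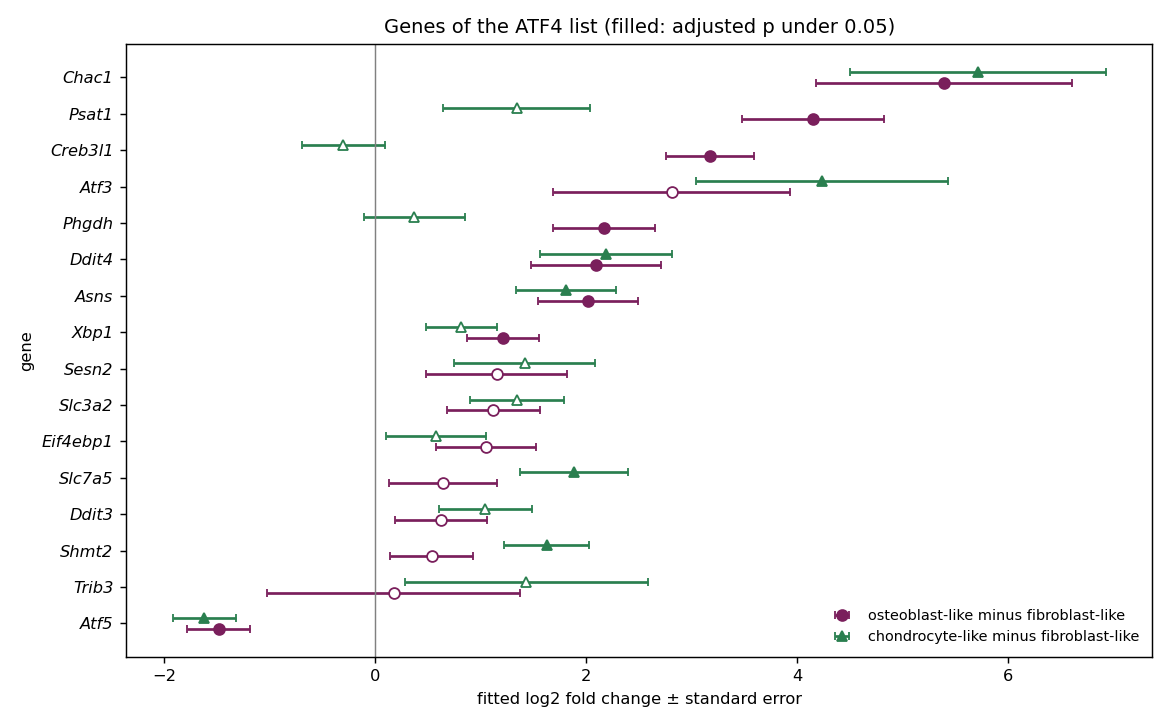
The plot gives the fitted log2 fold change (x axis, bars of 1 standard error) of the 16 tested genes of the ATF4 list (y axis) in osteoblast-like and chondrocyte-like minus fibroblast-like cells, with filled symbols for an adjusted p under 0.05. Psat1, Creb3l1, and Phgdh are filled for osteoblast-like and open for chondrocyte-like cells, and Atf5 is filled on the left in both comparisons.

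Over the 8 sums of the planned fit, which share 2 libraries and 4 classes, the genes with the log2 CPM pattern most like that of Runx2 were Mtss2, Myo19, and Unc5b (Pearson r 0.99, 0.979, and 0.979). For Sp7 they were Bcar3, Brd8, and Nt5dc2 (r 0.988 each). For Dlx3 they were Sema3b, Zfp451, and Fip1l1 (0.978, 0.975, and 0.968), for Dlx5 Ddx21, Prcc, and Mertk (0.989, 0.976, and 0.967), and for Dlx6 Dnm3os, Chn1, and Tnfrsf19 (0.979, 0.979, and 0.971). Msx1 was closest to Lynx1, Fbn1, and S100a11 (0.983, 0.977, and 0.975), and Atf4 to Vdac2, Sec11a, and Zfp330 (0.984, 0.984, and 0.98). Among the factors themselves, Runx2 was most like Sp7 (r 0.975) and Dlx5 (0.963), and Sp7 was least like Msx1 (-0.822). The neighbors Dlx5 and Dlx6 had r 0.55. These are descriptions over 8 sums and not tests.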

How the data were processed

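The authors deposited UMI counts per gene and barcode for 2 libraries (Chromium 3' v3.1), made with Cell Ranger 6.1.2 on mm10 per the labels, whereas the study's methods name only a human build. Library totals were 100808649 and 33306452 UMIs. Barcodes with at least 500 genes, at least 500 UMIs, and at most 10% mitochondrial UMIs were kept. Blood clusters were removed, and the rest was clustered in Seurat 5.3.0 (R 4.3.3) with CCA integration, 3000 variable genes, 15 principal components, and resolution 0.8. The 8 factors and the listed pathway genes were left out of clustering and naming. Doublets were not removed. Scrublet called 146 (2.33%) and 1 (0.0346%) of the cells, and did not work in library 2. Removing these cells left the count of called genes unchanged in each comparison of the planned fit. That alternative is thus no check of the planned fit.

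UMIs were summed per library and class with at least 10 cells and tested with edgeR 4.0.16 (TMM, filterByExpr, quasi-likelihood test, Benjamini-Hochberg threshold 0.05), with DESeq2 1.42.0 as an alternative. The other alternatives were relative log expression size factors, no TMM, no filter on low counts, a replicate block, clustering resolutions 0.4 and 1.2, no integration, removal of Scrublet doublets, and leaving out each library. The test was checked on simulated data, and no result of that check is given or used here. No cluster qualified as progenitor, so the Mmp9-led cluster took the place of that class. The fit with Lepr stromal-like cells used a minimum of 5 cells, and this fit, the one without TMM, and the one without Mmp9-led cells high in Bglap or Col2a1 were added after the data were seen. Same-numbered sums come from the same library, and their deviations from class means correlated at 0.164 to 0.337, so the number pairs them. The main fit held the class only and did not use this pairing, which the replicate block did. Poisson, exact conditional, and Clopper-Pearson intervals are at 95% and cover counting error only, and the floor is 3 counts. The members and lists were chosen with earlier results of these data known. Named were the members, up to 4 called genes of each list with the largest difference in osteoblast-like minus fibroblast-like cells, and the 3 genes most correlated with each member. The result of 1 gene that this rule names is not reported here.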

Additional observations from a re-analysis of the deposited data

Results flagged for a closer look

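Reporter transcripts were present although both libraries were labelled WT. They were not kept out of the clustering or the sums, and EGFP was among the leading genes of the Col10a1-led cluster. tdTomato had 1482 UMIs in the kept cells of library 1 and 4627 UMIs in those of library 2. EGFP had 6837 UMIs in library 2 and none in library 1. These signals were flagged because they lie outside the main measurement and above the limit that a count of 0 allows, and their part in the levels of the factors was not tested.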

How the results depend on the processing

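Of the fitted values of single factors under the alternatives, 638 kept direction and side of the threshold and 15 turned direction. A call was gained by 7 and lost by 12. Values without an adjusted p were counted among the 638 where the direction held and the main fit made no call. No value with a call turned direction in these 15. The 638 include values with Scrublet doublets removed, which left the count of called genes unchanged in each comparison of the planned fit. The cause of the changes was not tested. With DESeq2, 1075 genes and 1 factor were called in Mmp9-led minus chondrocyte-like, 1693 genes in chondrocyte-like minus fibroblast-like, and 357 genes in Mmp9-led minus Lepr stromal-like cells, and Dlx3 in Lepr stromal-like minus chondrocyte-like cells was 0.12. Without TMM factors, 631 genes and 1 factor were called in osteoblast-like minus Mmp9-led and 2045 genes and 2 factors in osteoblast-like minus Lepr stromal-like cells. Runx2 then was -0.41 and Dlx6 -0.074 in osteoblast-like minus Mmp9-led cells, Dlx6 -0.20 in chondrocyte-like minus fibroblast-like, Runx2 -0.76 in osteoblast-like minus Lepr stromal-like, Runx2 -0.35 and Dlx5 -0.44 in Mmp9-led minus Lepr stromal-like, Msx1 0.028 in Lepr stromal-like minus fibroblast-like, and Sp7 0.49 and Dlx3 0.28 in Lepr stromal-like minus chondrocyte-like cells. Without TMM factors the median of all genes was -0.43 in osteoblast-like minus Mmp9-led, 0.35 in Mmp9-led minus chondrocyte-like, -0.43 in chondrocyte-like minus fibroblast-like, -0.37 in Mmp9-led minus Lepr stromal-like, 0.23 in Lepr stromal-like minus fibroblast-like, and 0.72 in Lepr stromal-like minus chondrocyte-like cells (log2). With no filter, 615 genes and 1 factor were called in osteoblast-like minus Mmp9-led and 442 genes in Mmp9-led minus Lepr stromal-like cells. Without integration, 445 genes were called in Mmp9-led minus Lepr stromal-like, 893 in Lepr stromal-like minus fibroblast-like, and 1 factor in Lepr stromal-like minus chondrocyte-like cells. With the replicate block, which pairs sums of one library, 716 genes were called in osteoblast-like minus Mmp9-led and 428 in Mmp9-led minus Lepr stromal-like cells, Dlx6 in chondrocyte-like minus fibroblast-like cells was -0.051, and beyond Atf4 and Dlx5 above it changed no call of a factor. At resolution 0.4, Dlx6 was -0.14 in chondrocyte-like minus fibroblast-like, 2 factors were called and Runx2 was -0.54 in osteoblast-like minus Lepr stromal-like, Atf4 was 0.18 in Lepr stromal-like minus fibroblast-like, and 4 factors were called in Lepr stromal-like minus chondrocyte-like cells, while the 4 comparisons with the Mmp9-led cluster could not be fitted. The Lepr stromal-like class at that resolution held 83 and 40 cells, with Mmp9 among its leading genes. Without Mmp9-led cells high in Bglap or Col2a1, Runx2 was -0.083 in osteoblast-like minus Mmp9-led cells and 116 genes were called in Mmp9-led minus Lepr stromal-like cells.

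Leaving out a library leaves 1 sum per class and gives values with no test. They are differences of log2 CPM with a small count added, scaled as in the fit with Lepr stromal-like cells. They are not fitted fold changes, so a shift from the fitted value is not due to the library alone where counts are low. Dlx5 then ranged from -0.63 to 0.44 in osteoblast-like minus Mmp9-led, from -0.44 to 0.92 in Mmp9-led minus chondrocyte-like, from -0.999 to 0.37 in osteoblast-like minus Lepr stromal-like, from -1.44 to 1.00 in Mmp9-led minus Lepr stromal-like, and from -0.082 to 1.00 in Lepr stromal-like minus chondrocyte-like cells. Dlx6 ranged from -0.21 to 0.23 in chondrocyte-like minus fibroblast-like, from -0.95 to 1.39 in Lepr stromal-like minus fibroblast-like, and from -0.74 to 1.16 in Lepr stromal-like minus chondrocyte-like cells. Runx2 ranged from -0.077 to 0.78 in osteoblast-like and from -0.12 to 0.70 in Mmp9-led minus Lepr stromal-like cells, Sp7 from -0.15 to 1.46 in Mmp9-led minus Lepr stromal-like and from -0.98 to 0.62 in Lepr stromal-like minus chondrocyte-like cells, Msx1 from -1.07 to 0.69 in Lepr stromal-like minus fibroblast-like cells, and Dlx3 from -1.48 to 0.98 in Lepr stromal-like minus chondrocyte-like cells. Depth limits Msx2, and the 7 Lepr stromal-like cells of library 2 limit each comparison with that class.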
